A study of Mus musculus with 20 samples.

Results

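The samples described here are 6 RNA-seq libraries of mouse gastric organoids, cultured epithelium from the stomach of BL/6 mice, out of 20 libraries and 8 lines in the series. They were chosen by their labels: both libraries of line 1270, a line without dysplasia in which p53 was knocked out ex vivo, and all 4 libraries of the WT lines without dysplasia, 1269 and 300. Line 1270 is the one ex vivo KO line among the samples used here, so the KO group is 1 line read by 2 libraries (1270-1 and 1270-2) and the WT group is 2 lines read by 2 libraries each (1269-1, 1269-2, 300-1 and 300-2). All 3 lines share the strain, the absence of dysplasia and growth in conditioned medium, and the WT lines carry no p53 alteration in the labels. No label says how p53 was removed ex vivo, whether line 1270 is a single clone, which line it was derived from or whether the lines come from separate animals. The p-values then measure only spread within the whole series, among its 8 lines or its 20 libraries depending on the test. That spread may be technical. Line 1269 has the neighbouring number to line 1270, and the KO line was set against both WT lines together and against each of them separately.

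Trp53 encodes p53, a transcription factor that is held at a low level by the ubiquitin ligase Mdm2 and is released by DNA damage, oncogene signals and other stress. It binds paired copies of a short motif and switches on genes that arrest the cell cycle, start apoptosis, repair DNA, alter metabolism and, in a feedback loop, raise Mdm2 itself. In the stomach its loss is known from gastric cancer, and the comparison asks what its removal from cultured epithelium without dysplasia changes.

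The 6 libraries held between 11018924 and 16323270 counts, over 24047 gene symbols. Levels are given as CPM, read counts relative to library size, scaled by TMM (trimmed mean of M-values), a normalization that corrects for library composition. Libraries of the same line were not interchangeable. The median absolute log2 difference over genes was 0.226 between the KO libraries, 0.241 between those of line 1269 and 0.325 between those of line 300, against 0.206 between lines 1270 and 1269, 0.240 between lines 1270 and 300 and 0.286 between the WT lines, all as line sums. Earlier results of these data set 300-2 among 6 libraries apart from the rest of their lines, but with 2 libraries in line 300 their difference does not show which of them stands apart. Xist, the RNA that silences an X chromosome, was at 927 and 477 CPM in line 1270 and 460.4 and 441 in line 1269 but at 0.547 and 0.592 in line 300. The Y-linked Eif2s3y was at 65.8 and 70.6 CPM in line 300 alone, with at most 0.0768 in the other 4 libraries. Sex genes differed between the WT lines, and line 1270 has the pattern of line 1269.

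Trp53 itself was nearly lost from the KO line. Its level was 5.84 and 4.42 CPM in libraries 1270-1 and 1270-2, 159.7 and 163 in 1269-1 and 1269-2, and 119.5 and 101 in 300-1 and 300-2. Both KO libraries lay far below all 4 WT libraries. In raw counts the KO libraries had 79 and 75 reads on Trp53 against 6388 over the WT libraries, a rate of 3.91% of WT with an exact 95% interval of 3.31% to 4.58% that covers counting error only. The table gives 1 count per gene, so it does not show whether the remaining reads fall in a part of the gene that the KO leaves in place. For comparison, the in vivo KO line without dysplasia, 650, was at 22.9 and 33.1 CPM.

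In the test across all genes, with libraries summed per line and the WT lines against the KO line, Trp53 had a log2 fold change of -4.77 ± 0.84 (SE) and did not pass (adjusted p = 0.636, edgeR's quasi-likelihood test with Benjamini-Hochberg adjustment; lower in 2 of 2 KO libraries). That test called 0 of 14057 genes at an adjusted p of 0.05. It left 3 residual degrees of freedom and took the spread of the lone KO line to be that of the other lines. At an unadjusted p of 0.05 it gave 657 genes, 4.67% of those tested, of which 124 were higher and 533 lower in the KO line. DESeq2 on the same sums called 178 genes (1.27%), 15 higher (0.107%) and 163 lower (1.16%), and limma-voom on the libraries with lines as correlated blocks called 52 (0.396%), 12 higher (0.0913%) and 40 lower (0.304%). The results that follow rest on values in each library, on whether both KO libraries lay outside all 4 WT libraries, and on tests between single lines. By the second of these measures 2319 genes (16.5%) did not overlap, 1020 higher (7.26%) and 1299 lower (9.24%) in the KO line. That count depended on which libraries were set against each other, with 4871 genes without 1270-1, 5474 without 1270-2 and 3553 without 300-2. Tests between lines used the libraries as samples and compare lines, not genotypes: 628 genes differed between lines 1270 and 1269 (4.78%; 162 higher and 466 lower in 1270) and 327 between lines 1270 and 300 (2.49%; 110 higher and 217 lower). Between the WT lines themselves 514 genes differed (3.91%), 272 higher in line 1269 and 242 higher in line 300. The counts moved with single libraries, to 148 without 1269-2 and 282 without 1270-1 for the first comparison, and to 91 without 300-2, 170 without 300-1 and 172 without 1270-2 for the second. Between the WT lines 125 were called without 1269-2, 158 without 300-1 and 96 without 300-2.

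**Figure D1:**
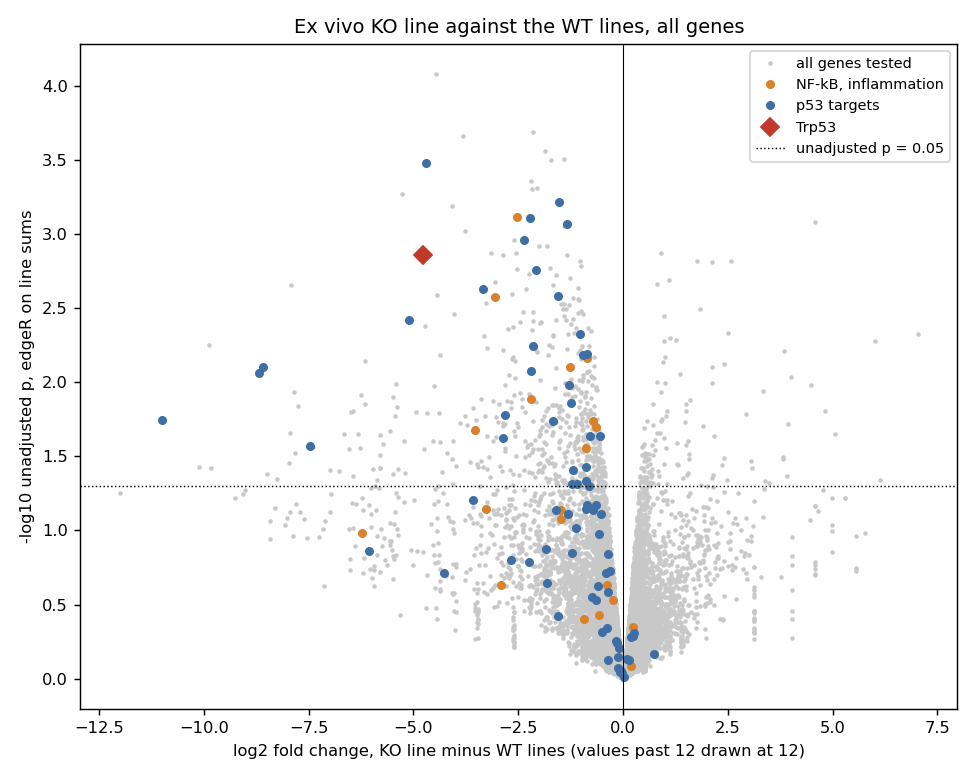
Log2 fold change of the ex vivo KO line minus the WT lines (x) against -log10 of the unadjusted p from edgeR on line sums (y), 1 point per gene tested. Trp53 (red) and most of the 74 p53 targets (blue) lie left of 0, as do most of the 20 genes of NF-kB signalling and inflammation (orange), and no gene passed the adjusted threshold.

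Genes known as p53 targets were lower as a group in the KO line. This list and those below were chosen with earlier results of these data known, which limits their comparison with all genes. Of 75 list entries 74 could be tested. Of these, 67 had a lower estimate than WT, against 54.4% of all genes, and 7 a higher one, with a median log2 fold change of -0.91 against -0.03 over all genes. Both KO libraries were below all 4 WT libraries for 42 of the 74, against 9.24% of all genes, and above them for 0, against 7.26%. With any 1 of the 6 libraries left out the count below was 42 to 49, against 10.3% to 18.9% of all genes, and the count above 0 to 3, against 9.23% to 20.1%. The median was -0.49 without line 1269. Against line 1269 alone 36 of 71 targets were lower and 0 higher past the threshold, against 3.55% and 1.23% of all genes. The 36 became 15 without 1269-2 and 23 without 1270-2. Against line 300 alone 16 of 71 were lower and 0 higher, against 1.65% and 0.837% of all genes. The 16 became 8 without 300-2 and 9 without 1270-2. When each comparison was fitted on its own 4 libraries, 2 targets were called lower against line 1269, among 9 genes called in all, and 13 against line 300, among 140. DESeq2 on line sums called 20 of the 74 lower, against 1.16% of all genes, and 0 higher. In edgeR's test on line sums 31 were lower and 0 higher at an unadjusted p under 0.05, against 3.79% and 0.882%.

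**Figure D2:**
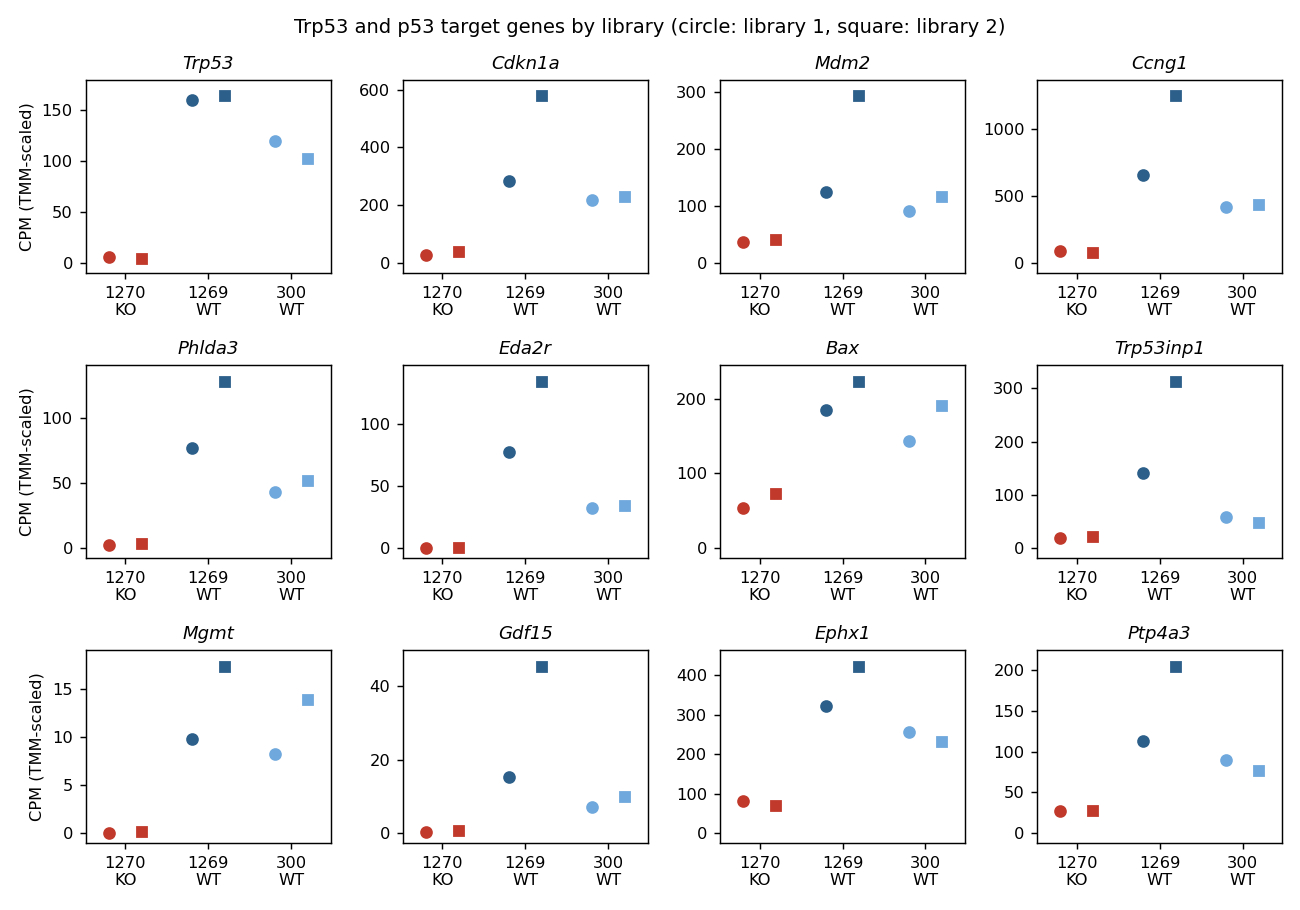
CPM (y, linear, from 0) of Trp53 and 11 p53 target genes in each library, by line (x), circles for library 1 and squares for library 2 of a line. In all 12 panels both KO libraries (red) lie below all 4 WT libraries (blue), and in each of the 12 library 1269-2 is the highest of all. The targets shown were chosen among genes without overlap or after their values were seen, so their separation follows from that choice. Of the 74 targets tested 32 overlapped WT.

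Of 12 tested genes of p53 itself, its family and its feedback 4 lay below WT in both KO libraries and 1 above. Over all genes these shares were 9.24% and 7.26%. Trp53 is one of the 4, and the others are given here with Cdkn1a, a target of the arrest list. Cdkn1a encodes the CDK inhibitor p21, the main effector of p53-dependent arrest. It was at 26.7 and 37.1 CPM in the KO libraries, 286 and 576 in line 1269 and 217 and 228 in line 300, a log2 fold change of -3.33 ± 0.65. Mdm2, the ubiquitin ligase that p53 itself induces, was at 37.9 and 41.4 CPM against 124 and 292 and 91.1 and 117. Ccng1, a cyclin that feeds back on Mdm2 and p53, was at 89.4 and 77.2 against 655 and 1242 and 420.0 and 433, and Zmat3, an RNA-binding p53 target, at 35.3 and 28.8 against 137 and 194 and 107 and 57.9. For each of the 4 genes both KO libraries lay well below the lowest WT library. Cdkn1a and Ccng1 were lower than in line 1269 (adjusted p = 2.95e-05 and 8.51e-06) and than in line 300 (3.61e-04 and 2.76e-04, edgeR on libraries), and both calls held with each library left out. Mdm2 and Zmat3 were lower than in line 1269 (0.00112 and 0.00156). Against line 300 Mdm2 passed at 0.0482, with values up to 0.375 when any 1 of the libraries 1270-1, 1270-2, 300-1 and 300-2 was left out, and Zmat3 did not (0.0668). The 1 above was Usp28, a deubiquitinase, by a narrow margin at 19.4 and 22.5 CPM against 17.5 and 13.9 and 18.3 and 15.7. The other 7 overlapped WT, among them Mdm4 at 24.5 and 29.4 CPM against 30.7 and 52.7 and 20.1 and 32.04 and the phosphatase Ppm1d at 22.98 and 26.3 against 30.1 and 34.4 and 22.97 and 19.2.

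The promoter of Cdkn1a holds the one full p53 motif found among the target promoters, and is shown for that reason. The sequences come from RefSeq windows of build GRCm38.p6, 250 bases before to 50 after each start, and the counts come from build mm9, so only gene symbols link them. Capitals mark the 2 motif copies of 10 bases, separated by 12 bases, from -73 to -42 relative to the upstream start, in the window chr17:29090729-29091028, plus strand. Only copies that match the motif at all 10 bases are marked. The 10 bases directly after the downstream copy miss it at their first base alone and are not marked, so the capitals may not show the pair that p53 uses.
Cdkn1a: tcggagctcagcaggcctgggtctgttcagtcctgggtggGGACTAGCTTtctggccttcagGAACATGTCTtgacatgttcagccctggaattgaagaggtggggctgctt
Windows with 2 copies at most 13 bases apart on either strand were 6 of 13368 windows of genes tested (0.0449%). The p53 half-site alone, the motif of 10 bases written with degenerate letters and read on both strands, was in the windows of 8 of 35 matched targets that lay below WT in both KO libraries, 13 of 61 matched targets in all (21.3%) and 885 of 10471 genes tested (8.45%). Copies near the starts of lower targets are printed in capitals with their flanks, for Bax (chr7:45467065-45467124, minus strand), Ei24 (chr9:36797310-36797369, minus strand), Ier5 (chr1:155099768-155099827, minus strand) and Abcb1b (chr5:8797931-8797990, plus strand).
Bax: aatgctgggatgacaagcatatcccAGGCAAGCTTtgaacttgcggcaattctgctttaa
Ei24: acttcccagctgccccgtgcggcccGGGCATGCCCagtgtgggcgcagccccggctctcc
Ier5: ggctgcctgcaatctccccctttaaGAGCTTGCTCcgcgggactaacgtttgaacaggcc
Abcb1b: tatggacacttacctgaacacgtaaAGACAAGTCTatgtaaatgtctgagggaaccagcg
A match of letters is a description of the window and not a bound site, and the data hold no binding measurement.

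Among 21 targets of cell death, all 21 estimates were lower in the KO line, against 54.4% of all genes, and 13 lay below WT in both KO libraries, against 9.24%. Eda2r, a receptor of the TNF receptor family, was at 0.222 and 0.118 CPM in the KO libraries, 77.4 and 134 in line 1269 and 32.5 and 33.9 in line 300. The KO libraries had 5 reads against 3328 in WT, a rate of 0.243% of WT (exact 95% interval 0.0790% to 0.569%). Phlda3, an inhibitor of Akt, was at 2.51 and 3.24 CPM against 77.2 and 128 and 43.03 and 52.1, with the smallest p of any target, a log2 fold change of -4.69 ± 0.63 and an unadjusted p of 3.32e-04 (edgeR, adjusted p = 0.636). Both genes were lower than in either WT line with each library left out (Eda2r, 7.92e-08 and 9.37e-07; Phlda3, 4.59e-07 and 2.79e-06; edgeR adjusted p against lines 1269 and 300).
Bax, the pore-forming protein of mitochondrial apoptosis, kept a higher share of its WT level, at 54.3 and 73.03 CPM against 184 and 223 and 144 and 190.0. Trp53inp1, which couples p53 to apoptosis and autophagy, was at 18.7 and 20.6 against 142 and 313 and 59.3 and 47.1. The TNF receptor family genes Tnfrsf10b (20.6 and 21.5 against 46.95 and 100.3 and 46.1 and 52.3 CPM) and Tnfrsf23 (19.4 and 20.3 against 56.5 and 201 and 83.2 and 67.1) showed the same order of groups. Tnfrsf23 has close paralogs, so its reads are less certain. Bbc3 (PUMA), a BH3-only killer protein, was at 3.40 and 5.37 CPM against 9.07 and 15.6 and 10.03 and 9.17, and Aen, a nuclease active in apoptosis, at 25.7 and 24.95 against 68.2 and 87.8 and 47.1 and 46.8. All 6 separated by group. Members that overlapped WT include Apaf1 (37.2 and 50.5 against 68.5 and 87.4 and 47.04 and 25.1), the apoptosome scaffold, and Bid (25.3 and 30.3 against 31.5 and 29.2 and 31.7 and 30.96), a BH3-only protein.

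Of 20 targets of arrest and DNA repair 8 lay below WT in both KO libraries, against 9.24% of all genes. Mgmt, which removes alkyl groups from guanine, had 0 and 2 reads in the KO libraries and 9.84 and 17.3 CPM in line 1269 and 8.20 and 13.8 in line 300. The KO rate was 0.571% of WT (exact 95% interval 0.0690% to 2.07%). Mgmt was lower than in each WT line with each library left out (adjusted p = 1.12e-04 and 2.10e-04, edgeR). Btg2, an antiproliferative gene, was at 177 and 173 CPM against 232 and 448 and 289.5 and 296, Sfn (14-3-3 sigma), which holds cells in G2, at 68.3 and 44.1 against 83.3 and 122 and 99.5 and 115, and Polk, a translesion polymerase, at 21.1 and 15.8 against 36.7 and 69.2 and 32.3 and 33.6. Each was outside the WT range by a margin much smaller than for Mgmt or Cdkn1a. The nucleotide excision repair genes Ddb2 (17.1 and 13.3 against 11.9 and 11.7 and 10.5 and 18.3) and Xpc (34.4 and 24.3 against 22.7 and 22.6 and 28.7 and 19.9) and the ribonucleotide reductase subunit Rrm2b (13.8 and 12.7 against 12.5 and 18.9 and 11.2 and 15.3) overlapped WT. Among the repair genes Mgmt was nearly absent, Polk was below the WT range, and the other 3 named here overlapped it.

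Among 33 targets of stress, metabolism and secretion 21 lay below WT in both KO libraries and 0 above, against 9.24% and 7.26% of all genes. Gdf15, a secreted stress hormone, was at 0.369 and 0.708 CPM in the KO libraries against 15.4 and 45.3 and 7.11 and 9.76. Ephx1, a xenobiotic epoxide hydrolase, was at 81.9 and 68.2 against 324 and 422 and 256 and 232, and Ptp4a3, a phosphatase, at 27.9 and 26.8 against 113 and 204 and 89.1 and 76.6. These 3 genes were lower than in line 1269 (adjusted p = 1.67e-04, 6.27e-05 and 5.39e-05) and than in line 300 (0.00438, 0.00106 and 0.00271, edgeR), and the calls held with each library left out.
Ano3 and Zfp365 belong to the genes that were nearly silent in the KO line, though both were unevenly expressed in WT. Ano3, an anoctamin membrane protein, had 0 reads in both KO libraries, 7.53 and 25.5 CPM in line 1269 and 1.46 and 1.18 in line 300, at least 89.3-fold lower in the KO line when a floor of 3 counts over its 2 libraries is used. Line 1269 carries that bound, which is 34.7-fold without 1269-2 and 12.2-fold against line 300 alone. Zfp365, a zinc finger gene of genome stability, had 1 read in the KO libraries and was at 8.99 and 43.8 CPM in line 1269 and 1.91 and 2.86 in line 300, so that the KO rate was 0.232% of WT (exact 95% interval 0.00588% to 1.30%). The rate was 0.724% without 1269-2, which holds 530 of the 697 WT reads, and 1.53% against line 300 alone. Abcb1b, a drug efflux pump with a close paralog, was at 2.66 and 1.95 CPM against 22.2 and 80.4 in line 1269 but only 4.38 and 3.06 in line 300. Its separation from line 300 is small next to the difference between the WT lines. Lif, a cytokine, was at 8.13 and 5.43 against 18.5 and 52.8 and 26.4 and 24.5, and Dcxr, a carbonyl reductase, at 49.6 and 47.1 against 98.98 and 148 and 94.2 and 139.6. Psrc1, a spindle gene, was at 5.39 and 12.9 against 46.1 and 74.3 and 24.3 and 29.8. The sestrin gene Sesn1 (8.42 and 8.26 against 6.07 and 6.20 and 8.02 and 9.56) and the glutaminase Gls2 (5.76 and 15.1 against 14.5 and 13.2 and 7.66 and 7.30) overlapped WT. The sestrin Sesn2 lay below, by a narrow margin to 300-2 (13.7 and 21.5 against 36.3 and 65.9 and 28.5 and 22.97).

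The WT lines did not have equal levels of p53 targets. Line 1269 was above line 300 for 60 of the 74 targets, against 49.7% of all genes, and 11 of 71 were higher in line 1269 past the threshold and 0 lower, against 2.07% and 1.84% of all genes. Library 1269-2 was the highest of the 4 WT libraries for 60 of the 74, against 25.7% of all genes. The 11 became 1 without 1269-2, 1 without 300-1, 0 without 300-2 and 26 without 1269-1. The mean log2(CPM + 1) of the 74 targets was 4.07 and 4.08 in the KO libraries, 5.07 and 5.74 in line 1269, and 4.78 and 4.80 in line 300. The KO libraries differed by less than those of line 1269 did, and the fold against WT depends on the WT line chosen, with list medians of -1.02 against line 1269 and -0.50 against line 300.

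**Figure D3:**
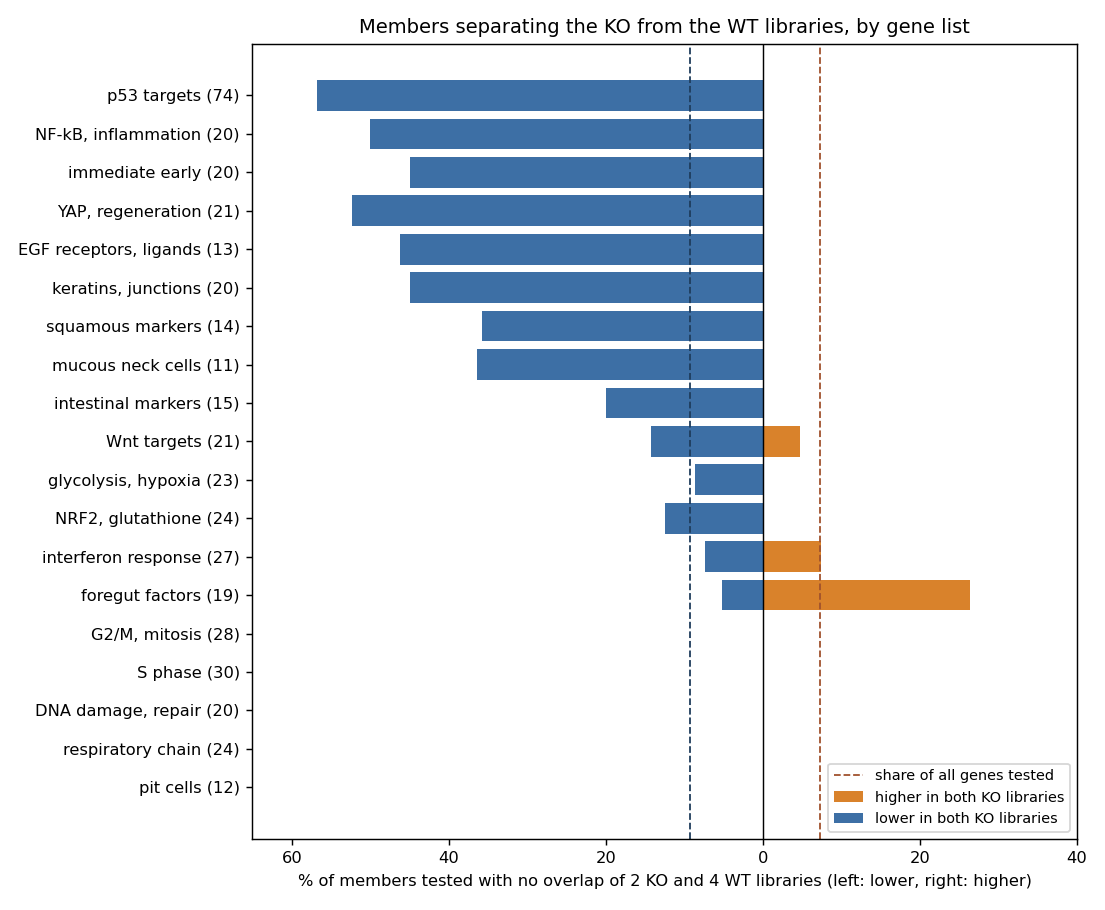
Share of the tested members of 19 gene lists (number tested in parentheses) for which both KO libraries lay below (blue, left) or above (orange, right) all 4 WT libraries. Dashed lines mark the shares over all genes tested, 9.24% lower and 7.26% higher, and the p53 targets stand at 42 of 74 lower and 0 higher. The lists were chosen with earlier results of these data known.

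The 12 genes with the smallest p-values among those lower in both KO libraries and above a mean log2 CPM of 2 included 2 listed p53 targets, Phlda3 and Bax, and none was called in the main test (adjusted p = 0.636). First among them was 9030617O03Rik, named Dglucy in RefSeq, the gene of D-glutamate cyclase, at 4.73 and 4.07 CPM in the KO libraries, 92.1 and 141 in line 1269 and 70.4 and 82.1 in line 300 (log2 fold change -4.47 ± 0.46). Il18rap, a subunit of the interleukin-18 receptor, was at 8.79 and 6.49 CPM against 26.4 and 29.7 and 25.7 and 26.9. Il1rn, the secreted antagonist of the interleukin-1 receptor, was at 57.2 and 68.7 against 264 and 387 and 259 and 247. Each of the 3 was lower than in line 1269 (adjusted p = 3.25e-08, 1.04e-04 and 4.38e-04) and line 300 (1.76e-07, 1.96e-04 and 0.00211, edgeR) with each library left out. F3, tissue factor, the trigger of coagulation, was at 163 and 82.2 CPM against 258 and 923 and 399.6 and 529.8. Angptl4, a secreted inhibitor of lipoprotein lipase, was at 4.29 and 0.590 against 17.8 and 59.4 and 19.3 and 29.4. C1qtnf6, a secreted C1q-like protein, was at 7.54 and 10.1 against 29.7 and 33.8 and 30.5 and 22.8, and Tnip3, an inhibitor of NF-kB signalling, at 18.7 and 18.9 against 51.1 and 108 and 66.7 and 86.4. These too separated from WT, with 1269-2 the highest library in each of the 4. Lower levels in all libraries were found for AW112010 (6.28 and 1.65 against 11.8 and 15.5 and 12.03 and 27.5) and Hmgcll1 (0.148 and 0.472 against 2.46 and 11.8 and 3.74 and 4.44), a lyase of ketone body synthesis.

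Inflammatory genes formed the next group of lower genes. Of 20 tested genes of NF-kB signalling and inflammation 18 had lower estimates, against 54.4% of all genes, and 10 lay below WT in both KO libraries and 0 above, against 9.24% and 7.26%. The median log2 fold change was -1.10 (-0.61 without line 1269). Against line 1269 11 of 20 were lower and 0 higher past the threshold, against 3.55% and 1.23% of all genes, and against line 300 3 and 0, against 1.65% and 0.837%. The 11 became 6 without 1269-2 and 6 without 1270-2, and the 3 became 0 without 300-2 and 0 without 1270-2. Tnf, the cytokine of that name, was at 2.81 and 1.121 CPM in the KO libraries, 9.99 and 15.7 in line 1269 and 7.38 and 9.66 in line 300 (log2 fold change -2.52 ± 0.40). Il1a, an alarmin of the interleukin-1 family, was at 3.40 and 0.885 against 5.76 and 38.1 and 10.3 and 13.01, and Il33, an alarmin that signals to innate lymphoid cells, at 118 and 83.6 against 284 and 718 and 527 and 263. Tnfaip3, the deubiquitinase A20 that ends NF-kB signalling, was at 47.95 and 46.8 against 92.3 and 183 and 86.3 and 91.5. For these 4 genes the KO libraries were the lowest of the 6. Cxcl5, a neutrophil chemokine, was at 15.4 and 6.14 CPM against 195 and 186 and 29.3 and 56.9, so line 300 stood nearer to the KO line than to line 1269. Lcn2, an iron-binding defence protein, was at 0.369 and 0.354 CPM against 57.9 and 48.5 in line 1269 but 0.547 and 0.493 in line 300, and separates lines 1270 and 300 from 1269. The transcription factor subunits Nfkb1 (100.4 and 116 against 96.8 and 93.02 and 104 and 69.7) and Nfkb2 (57.3 and 49.3 against 38.3 and 79.4 and 70.6 and 56.9) overlapped WT.

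Immediate early genes, which respond within minutes to growth factors and stress, gave counts of similar size. Of 20 tested 18 had lower estimates, against 54.4% of all genes, and 9 lay below WT in both KO libraries, with 0 above, against 9.24% and 7.26%. Against line 1269 10 of 19 were lower past the threshold, against 3.55% of all genes, and against line 300 2 of 19, against 1.65%. The 10 became 2 without 1269-2, 3 without 1270-2 and 6 without 1270-1, and the 2 became 0 without 1270-2 or 300-1 and 1 without 1270-1 or 300-2. Fos, a subunit of AP-1, was at 41.7 and 30.3 CPM in the KO libraries against 77.1 and 94.3 and 102 and 91.8, and Junb, its partner, at 111 and 108 against 173 and 241 and 175 and 188. Dusp1, a phosphatase of stress kinases, was at 9.61 and 8.32 against 21.4 and 61.6 and 22.2 and 17.9, and Dusp6, a phosphatase of ERK, at 9.61 and 9.38 against 21.1 and 58.6 and 32.7 and 26.6. The libraries of the KO line were nearly equal in Dusp1 and Junb and below all WT libraries in the 4 genes.

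Of 21 genes of YAP signalling and regenerative epithelium 11 lay below WT in both KO libraries and 0 above, against 9.24% and 7.26% of all genes. The lists share members, so their counts are not independent. Il33 is also in the inflammation list, Areg, Ereg and Epgn are also in the EGF list, and Tgfa is in the EGF and p53 target lists. Past the threshold 6 of 20 were lower than in line 1269, against 3.55% of all genes, and 2 of 20 than in line 300, against 1.65%. The 6 became 2 without 1269-2, 2 without 1270-2 and 4 without 1270-1, and the 2 became 1 without 1270-2, 300-1 or 300-2 and 4 without 1270-1. Ly6a (Sca-1), a surface protein of regenerating gut epithelium with close paralogs, was at 86.5 and 77.4 CPM against 483 and 1208 and 647 and 780.2. It was lower than in line 1269 (adjusted p = 3.51e-04) and line 300 (8.17e-04, edgeR) with each library left out. Cd44, a hyaluronan receptor also listed among neck cell and metaplasia markers, was at 99.7 and 78.2 against 214 and 401 and 188 and 149. Areg, a ligand of the EGF receptor, was at 58.6 and 17.6 against 109 and 242 and 105 and 126. Ctgf, a textbook YAP target, was at 131 and 129 against 227 and 407 and 239 and 304. The group order was the same in the 4 genes, and 1269-2 was again the highest library. Yap1 (139 and 142 against 150.2 and 147 and 136 and 111) and its partner Wwtr1 (55.7 and 71.4 against 64.8 and 86.2 and 55.9 and 43.7) did not separate. Ligands and receptors of the EGF family gave 6 of 13 below WT and 0 above, against the same shares of all genes. Without 1270-2 these counts were 4 and 2, against 18.9% and 20.1%. Past the threshold 3 of 11 were lower than in line 1269, against 3.55%, and 1 of 11 than in line 300, against 1.65%. Among the 6 were Hbegf at 43.4 and 44.8 CPM against 99.3 and 141 and 73.5 and 76.6, and Ereg at 9.46 and 2.36 against 35.6 and 74.4 and 12.4 and 9.56. For Ereg the margin to 300-2 was narrow.

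**Figure D4:**
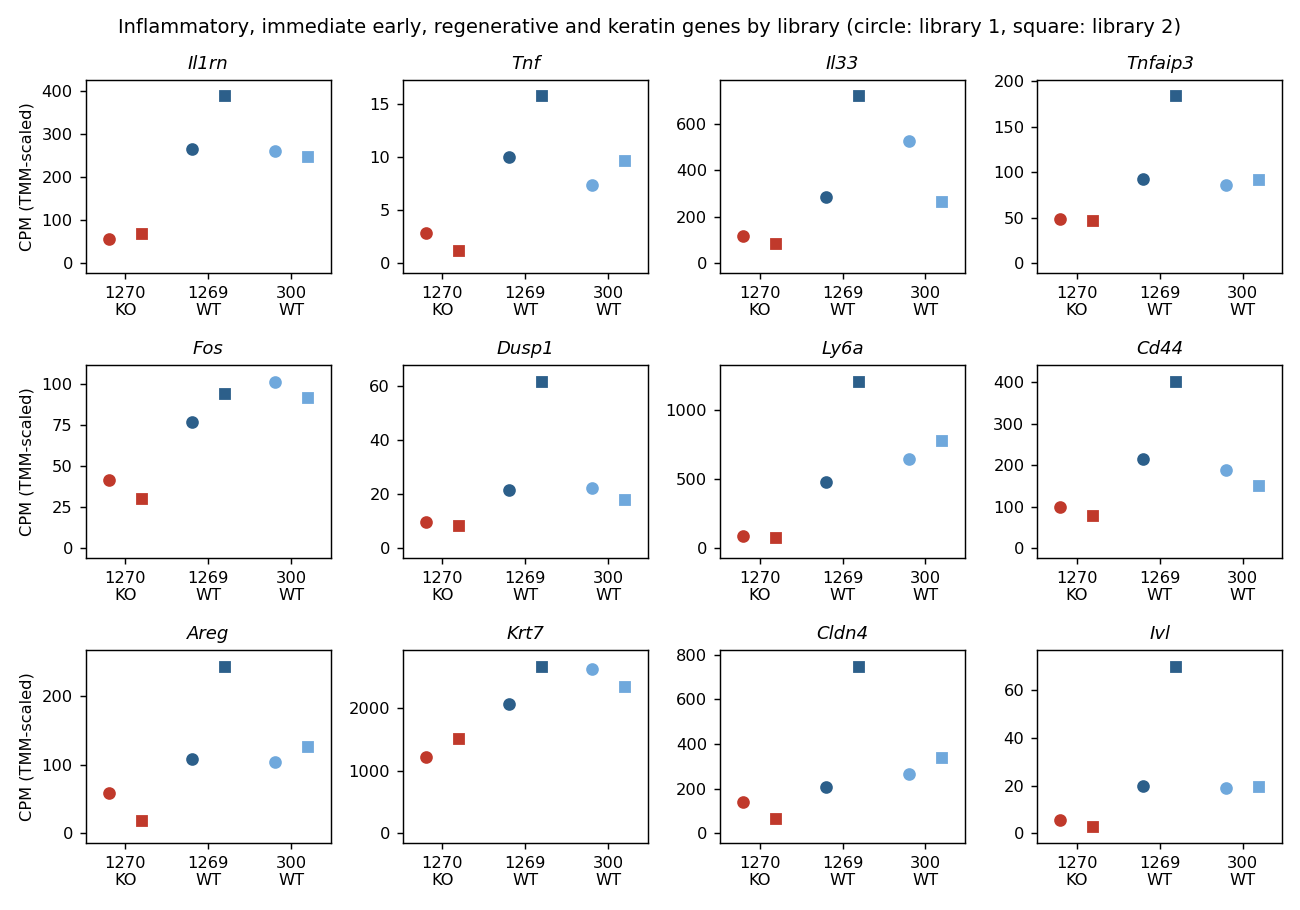
CPM (y, linear, from 0) of 12 genes of inflammation, the immediate early response, regeneration, keratins and junctions in each library, by line (x), circles for library 1 and squares for library 2 of a line. Both KO libraries (red) lie below all 4 WT libraries (blue) in each panel, and 1269-2 is the highest library in 11 of the 12. The genes were chosen among those without overlap or after their values were seen, so their separation follows from that choice.

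Simple epithelial keratins, the intermediate filaments of glandular epithelium, were examined with junction genes. Of 20 genes of keratins and junctions 9 lay below WT in both KO libraries and 0 above, against 9.24% and 7.26% of all genes, with a median of -0.40 that was -0.08 without line 1269 and -0.18 without 1270-2. Krt7 was at 1207 and 1499.7 CPM against 2062 and 2651 and 2611 and 2327, Krt8 at 2945 and 2488 against 3407 and 4006 and 3798 and 3724, and Krt19 at 2863 and 2972 against 3515 and 4475 and 4318 and 4728. Margins to the nearest WT library were narrow. The tight junction gene Cldn4 was at 141 and 66.4 CPM against 209 and 747 and 265 and 338, whereas Cldn18, the stomach claudin, overlapped at 1491 and 1048 against 1140.4 and 1365 and 1288 and 1311. Markers of squamous forestomach epithelium gave 5 of 14 below WT and 0 above, against 9.24% and 7.26% of all genes. Past the threshold 4 of 12 were lower than in line 1269, against 3.55% of all genes, and 2 of 12 than in line 300, against 1.65%. Ivl, involucrin, was at 5.47 and 2.65 CPM against 19.7 and 69.6 and 18.8 and 19.5, and Sprr1a, a protein of the cornified envelope, at 127 and 154 against 210.3 and 1147 and 521.6 and 657. Krt5 had at most 1.98 CPM in any of the 6 libraries, so the basal squamous keratin was close to absent in all. In bulk libraries fewer cells of a type and less RNA per cell cannot be told apart.

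Regional identity genes differed in part. Of 15 intestinal markers 3 lay below WT in both KO libraries and 0 above, against 9.24% and 7.26% of all genes. The 3 include Cdx2 and Vil1. Past the threshold 1 of 14 was lower than in line 1269 and 1 of 14 than in line 300. Cdx2, the intestinal homeobox factor, was at 1.03 and 0.944 CPM in the KO libraries, 9.53 and 7.77 in line 1269 and 4.19 and 5.13 in line 300, lower than in each WT line with each library left out (adjusted p = 5.74e-05 and 0.00166, edgeR). Vil1, a brush border actin bundler, was at 137 and 139 against 263 and 304 and 330.3 and 249.8. Among 19 foregut and antral factors 5 lay above WT in both KO libraries and 1 below. Among the 5 were Gata4 (319 and 315 against 181 and 136 and 233 and 162 CPM), Gata6 (115 and 116 against 88.1 and 56.7 and 96.4 and 65.1), Sox2 (47.3 and 41.6 against 31.3 and 15.4 and 25.5 and 22.3) and Foxa1 (282 and 288 against 253 and 173 and 219.5 and 170.4). The 1 below was Pdx1, an antral and duodenal factor, at 13.6 and 14.5 CPM against 25.3 and 21.3 and 29.8 and 33.6. None of the 6 was called in the main test (adjusted p from 0.888 to 1), and the shares stand against 7.26% higher and 9.24% lower over all genes.
Other regional genes followed the line rather than the group. Nkx6-3, an antral homeobox factor, was at 2.44 and 6.78 CPM in line 1270 and 0 and 0.165 in line 1269 but 129 and 131 in line 300. Tff2, a trefoil peptide of neck cells, was at 82.97 and 10.5 and 20.98 and 8.76 in those lines and 686 and 1579 in line 300. Both genes were low in lines 1270 and 1269 and high in line 300. Aqp4, a water channel of parietal cells, was at 5.25 and 46.1 CPM in line 1270, 404 and 449.8 in line 1269 and 39.1 and 29.8 in line 300, and here line 1269 stood alone.

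Higher genes were the smaller part of those with an unadjusted p under 0.05, 124 of 657. Myo16, an unconventional myosin, was at 56.7 and 29.2 CPM in the KO libraries against 0.231 and 0.165 and 0.456 and 0.394, with 1263 reads in the KO against 14 in the WT libraries. It had a log2 fold change of 7.03 ± 1.59 (adjusted p = 0.707 in the main test) and was higher than in line 1269 (9.63e-06) and line 300 (2.23e-05, edgeR) with each library left out. Among the named genes it was the 1 of 15 held calls against both WT lines that was higher, the other 14 being lower. Most named genes were chosen because their groups do not overlap, so this split is no measure over all genes. Maoa, a mitochondrial monoamine oxidase, was at 16.5 and 13.4 CPM against 3.53 and 2.32 and 2.10 and 1.77. Its call against line 1269 (0.00251) was lost without 1269-2 (0.0714), and its call against line 300 (0.00108) was not lost with any library left out. Ugt8a, a galactosyltransferase of sphingolipid synthesis, was at 13.6 and 14.4 against 3.77 and 1.82 and 3.65 and 3.45, and Tmem246 at 60.4 and 42.5 against 18.8 and 13.3 and 13.8 and 12.7. Acsl1, which activates long-chain fatty acids, was at 111 and 67.8 against 56.6 and 31.1 and 52.6 and 40.7. Map3k5 (ASK1), a stress kinase, was at 95.1 and 95.03 against 55.6 and 49.9 and 64.99 and 42.3, and Slc25a23, a mitochondrial carrier, at 29.7 and 29.4 against 15.4 and 10.4 and 16.4 and 16.27. In each of these the KO libraries were the highest of the 6, by margins that were small for Acsl1 and Map3k5.

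Cdkn2a, which encodes both a CDK inhibitor and ARF, a protein that binds Mdm2, was at 58.4 and 60.4 CPM in the KO libraries against 15.3 and 26.9 and 15.6 and 19.9. The count does not separate its transcripts. The log2 fold change was 1.61 ± 0.46, and the gene passed in neither line comparison (adjusted p = 0.0699 against line 1269 and 0.0568 against line 300, edgeR; higher in 2 of 2 KO libraries). Cdkn1c (p57), another CDK inhibitor, was at 10.6 and 16.9 CPM against 7.84 and 7.77 and 6.29 and 7.39. In a list of 10 genes, CDK inhibitors and pocket proteins with Trp53inp2, these 2 lay above WT and 0 below. Over all genes 7.26% lay above and 9.24% below. The list leaves out the p53 target Cdkn1a, given above as lower, and its members Cdkn1b and Rb1 overlapped.

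Proliferation genes did not follow the group. Of 28 genes of G2/M and mitosis and 30 of S phase 0 separated from WT in either direction, and the medians of the log2 fold change were 0.05 and 0.00. The medians had opposite signs against the WT lines, -0.34 and -0.27 against line 1269 and 0.51 and 0.40 against line 300, and 0 of either list was called in either line comparison. The mean log2(CPM + 1) of the G2/M list was 6.27 and 7.25 in the KO libraries, 7.34 and 6.91 in line 1269 and 6.44 and 6.21 in line 300, so the KO libraries spanned most of the range. DNA damage signalling and repair genes gave 0 of 20 separated.

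The KO libraries differed from each other in differentiation and metabolism. Of 12 markers of pit cells, the mucous cells that line the stomach surface, all 12 were higher in 1270-1 than in 1270-2, with a median log2 difference of 1.72 against -0.02 over all genes. Muc5ac, the surface mucin, was at 421 CPM in 1270-1 and 1.83 in 1270-2, against 15.5 and 1.07 in line 1269 and 6.20 and 10.2 in line 300. Gkn1, a secreted gastrokine, was at 1038 and 14.4 in the KO libraries against 64.6 and 54.8 and 104 and 218. Library 1270-1 was the highest of the 6 in 10 of the 12 markers and 0 of 12 separated by group. The opposite was seen in 23 genes of glycolysis and hypoxia. All 23 were lower in 1270-1 than in 1270-2, with a median of -1.54, and 1270-1 was the lowest of the 6 libraries in all 23. Slc16a3, a lactate exporter, was at 5.39 CPM in 1270-1 and 178 in 1270-2 against 323 and 494 and 148 and 169.6. Line sums gave lower estimates in the KO line for all 23, but 2 separated by group, Egln3 (86.9 and 450.1 against 635 and 1023 and 720.5 and 855) and Car9 (70.3 and 294 against 358 and 631 and 307 and 347), near the 9.24% of all genes. By contrast the KO libraries were nearly level over the p53 targets, with 41 of 74 higher in 1270-1 and a median difference of 0.03.

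**Figure D5:**
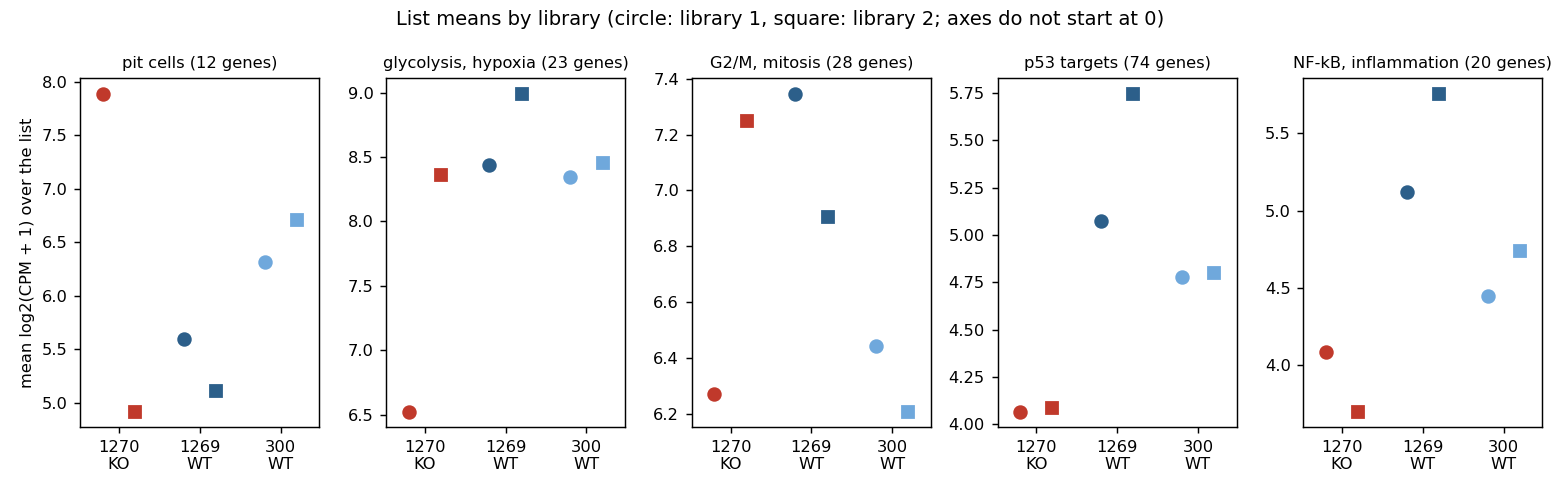
Mean log2(CPM + 1) (y, axes not from 0) over 5 gene lists in each library, by line (x), circles for library 1 and squares for library 2 of a line. The KO libraries (red) are far apart for pit cell, glycolysis and G2/M genes and nearly level for p53 targets, where both lie below all WT libraries (blue).

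Further lists are given by their counts, against 7.26% above and 9.24% below over all genes. Of 27 interferon response genes 2 lay above and 2 below WT, of 24 genes of NRF2 and glutathione 0 and 3, of 25 of cholesterol and fatty acid synthesis 1 and 0, and of 24 of the nuclear-encoded respiratory chain 0 and 0. Cholesterol genes were lower in 1270-1 than in 1270-2 in 25 of 25. Chief cell markers gave 1 of 8 above, Cym (chymosin), at 786 and 817 CPM against 342 and 66.9 and 24.8 and 51.2, with line 1269 split between its libraries. Neck cell and metaplasia markers gave 4 of 11 below and 0 above, with lower estimates in 10 of 11. The 4 were Cd44, given above, Muc6, the gland mucin, by a narrow margin at 93.5 and 71.1 CPM against 99.4 and 97.2 and 175 and 104, Wfdc2, a secreted protease inhibitor, at 437 and 497 against 643 and 797 and 732 and 1516, and Glipr1 at 50.6 and 59.6 against 188 and 431 and 92.5 and 180.0.

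Markers of other cell types were checked beside these groups. Of 14 immune genes 8 had 0 reads in all 6 libraries, among them Cd4, Cd8a and Tyrobp, and without Cd68 the list summed to 0.531 to 1.18 CPM in the KO libraries and 1.00 to 2.15 in WT. Cd68, a lysosomal protein used as a macrophage marker, was at 5.17 and 11.9 CPM against 30.05 and 73.3 and 25.5 and 21.8, below WT in both KO libraries. The 13 fibroblast markers summed to 6.43 to 8.72 CPM in the KO and 6.65 to 14.2 in the WT libraries. Endothelial, muscle and mesothelial markers without Msln, which was at 919 and 806 against 1125 and 1800.1 and 1424 and 1823, summed to 5.72 to 19.7 in the KO and 7.68 to 19.3 in the WT libraries. What part these low levels have in any result was not tested.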

How the data were processed

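RNA of gastric organoids was measured by sequencing, and 6 of 20 libraries enter the comparisons. Per the labels' protocols, libraries were made with an mRNA kit from 100 ng of total RNA. The submitters' processing notes name bcl2fastq, STAR 2.5 and mm9. Annotation, counter and strand use: not given in the sources used here. Overlapping genes, antisense genes and close paralogs are uncertain for that reason. The deposited values are raw counts per gene symbol, with no normalization. Each column matched 1 title in the labels.

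The labels for genotype, dysplasia and mode of KO set the groups. The members and the gene lists were chosen with earlier results of these data known. The 37 lists held 692 entries, of which 687 matched the table. edgeR 4.0.16, DESeq2 1.42.0 and limma 3.58.1 were run under R 4.3.3, and the fits were tested on simulated data. In the main test counts were summed per line over all 8 lines, filtered with filterByExpr (14057 genes kept), scaled by TMM and fitted with 5 group means and a robust quasi-likelihood test, with Benjamini-Hochberg adjustment at 0.05. Line comparisons used the 20 libraries with 8 line means (13141 genes, 12 residual degrees of freedom). An SE is the log2 fold change divided by the square root of F. Genes count as not overlapping when both KO libraries lie outside all 4 WT libraries in CPM. Intervals are exact and cover counting error only.

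Named genes were Trp53, up to 12 called genes per direction or, as none was called, those with the smallest p among genes not overlapping and with a mean log2 CPM above 2, and up to 4 such members of each list. Genes printed beyond that rule were chosen after their values were seen, among them Eda2r, Mgmt, Ano3, Zfp365, Ptp4a3, Cxcl5 and Lcn2, the overlapping members and the pit cell genes. Of the 12 higher genes, those not printed in the report are Lyst, Epb4.1l4a, Plagl1, Hs3st3b1 and 5930403L14Rik. Alternatives were other scalings, filters, tools and sample sets, a replicate block, and leaving out each library. For the counts and medians of single gene lists and the read ratios of single genes these alternatives were chosen after seeing the data. Depth per library was 11018924 to 16323270 counts, so 1 CPM is 11.0 to 16.3 reads.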

Additional observations from a re-analysis of the deposited data

Results flagged for a closer look

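In each of 115 genes printed here and 5 list means, the 4 WT libraries were searched for 1 library far from the other 3, measured as a gap whose share of the range is above Dixon's 95% critical value. Chance alone flags about 1 in 20 such groups. The search gave 16 genes, and the far library was 1269-2 in 14 of them. It was high in the p53 targets Mdm2 (292 CPM), Tnfrsf10b (100.3), Bbc3 (15.6), Polk (69.2) and Zfp365 (43.8). It was also high in Il1rn (387), Tnfaip3 (183), Dusp1 (61.6), Areg (242), Ivl (69.6), Car9 (631) and Cd68 (73.3). It was low in Slc25a23 (10.4) and Ugt8a (1.82), both of which were higher in the KO line. In Cym the far library was the other one of line 1269, 1269-1, at 342 CPM. In Muc6 it was 300-1, at 175 CPM.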

How the results depend on the processing

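The count of 0 genes called in the main test was also 0 with RLE scaling, without a low-count filter, on the 3 lines alone, without 6 libraries that earlier results of these data set apart, without line 1269 or line 300, and with each library left out (0 to 0). It was 178 with DESeq2, 127 with libraries as samples and 52 with limma-voom. With libraries as samples and a replicate block it was 150, although the library numbers do not pair the lines (correlations of the libraries' deviations -0.08, -0.03 and 0.01). For Trp53 the log2 fold change was -4.77, -4.73 and -4.73 in the first 3 of these fits and -4.74 with the block, and it passed in all 4. It ran from -4.97 to -4.50 with 1 library left out. The median of the p53 targets with the feedback genes was -0.91. It moved to -0.47 without line 1269 and ran from -1.09 to -0.69 with 1 library left out.

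Genes that differed between lines 1270 and 1269 numbered 1028 with DESeq2, 9 on the 4 libraries alone, 960 with a replicate block, 1508 with a term for those 6 libraries, and 148 to 878 with 1 library left out. For lines 1270 and 300 these counts were 556, 140, 513, 622 and 91 to 295. For the WT lines they were 904 with DESeq2, 496 on the 4 libraries alone, 1062 with the block, 1166 with the term and 96 to 494. Genes without overlap numbered 2746 to 5474 with 1 library left out, since fewer libraries overlap less easily. The cause of the other shifts was not tested. None of the 132 single genes tried turned direction, but most were chosen because their groups do not overlap. One KO line cannot separate the KO from other properties of that line.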

Other observations

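Further genes of signalling and cell types are given here, and none was called in the main test. Tgfb1, a growth inhibitory cytokine, was at 4.88 and 5.96 CPM in the KO libraries against 9.99 and 21.1 in line 1269 and 15.8 and 19.03 in line 300. Mmp14, a membrane metalloprotease, was at 47.2 and 62.7 against 95.7 and 169.6 and 106 and 68.6, and Notch3, a Notch receptor, at 7.46 and 10.6 against 35.04 and 78.6 and 20.6 and 13.5. All 3 lay below WT in both KO libraries, Mmp14 and Notch3 by a narrow margin to 300-2. Tgfb1 and Mmp14 were the 2 of 12 mesenchymal transition genes below WT, with 0 above and 6 estimates in each direction. Of 14 Notch genes 2 lay below WT and 2 above. Over all genes 9.24% lay below and 7.26% above. Among 21 Wnt targets and feedback genes 3 lay below and 1 above, against 9.24% and 7.26% of all genes. Ccnd1, cyclin D1, was at 407 and 441 CPM against 895 and 1045 and 752 and 479.9, a narrow margin to 300-2. The 1 above was the ligand Wnt4, at 9.09 and 12.2 against 4.53 and 5.13 and 1.91 and 3.06. Of the tuft cell markers 2 of 11 lay below WT and 0 above, against 9.24% and 7.26% of all genes. The 2 were Avil (132 and 106 against 195 and 262 and 250.2 and 155) and the cyclooxygenase Ptgs1 (10.3 and 7.20 against 16.1 and 16.7 and 27.3 and 21.3). Parietal cell markers gave 3 of 12 above WT and 1 below, against 7.26% and 9.24% of all genes. Their estimates were lower in 8 of 12. Esrrg, a nuclear receptor of parietal cells, was higher in both KO libraries at 5.25 and 3.07 CPM against 1.08 and 0.331 and 0 and 0.0986. The proton pump gene Atp4a was low in all 6 libraries, at 0.813 and 0.708 against 0.922 and 0.413 and 1.09 and 1.28.

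Of the genes named by rule, or added to them, and tested against both WT lines, 128 in number, 43 were called against both and 15 were still called against both with each library left out. These were Trp53, Cdkn1a, Ccng1, Phlda3, Eda2r, Mgmt, Gdf15, Ephx1, Ptp4a3, 9030617O03Rik, Il18rap, Il1rn, Ly6a and Cdx2, all lower, and Myo16, which was higher. Most of the 128 were chosen from these same libraries because their groups do not overlap, so the counts describe that selection. Over all genes tested 4.78% were called against line 1269 and 2.49% against line 300, and calls against both were not counted.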
